A study of Drosophila melanogaster with 16 samples.

Results

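The genes described here are the cytochrome P450 genes of the fly, taken as every row of the midgut count table whose symbol has the form Cyp, a family number, a subfamily letter and a gene number. This rule found 82 of the 16680 genes of the table, and it left out the cyclophilins, whose symbols also start with Cyp. P450 genes that carry other names, such as those of ecdysone synthesis, are outside the rule and are treated at the end. Of the 82 members, 66 had enough reads to be tested and 16 had not.

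Cytochrome P450s are haem enzymes that insert an oxygen atom into their substrates, with electrons passed on from a reductase. In insects they fall into 4 clans. Members of clan 3 and clan 4 are known mainly from the oxidation of plant toxins, insecticides and fatty acids, the mitochondrial clan holds both hormone and detoxification enzymes, and clan 2 holds few genes, several with a part in development. The midgut is, with the Malpighian tubules and the fat body, a main site of insect detoxification, and many P450 genes stand in tandem clusters of recent duplicates.

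RNA was sequenced from whole dissected midguts of virgin flies, with poly(A) selection and 30 guts pooled in each library. Females and males labelled Myc RNAi had the genotype mex1TS > MycRNAi GD1419, and female and male controls were w1118; mex1-GAL4 TS/+, so the driver was shared by all 4 groups. The control genotype names no RNAi construct. Effects of the construct or of its line's background therefore cannot be told apart from those of Myc knockdown. mex1-GAL4 acts in enterocytes, the absorptive cells of the gut, while the RNA came from all cells of the organ. Each group had 4 libraries, numbered 9 to 12 and 13 to 16 in females and males labelled Myc RNAi, and 1 to 4 and 5 to 8 in female and male controls. Each library is a pool, so a p-value here reflects pool-to-pool spread. In such bulk samples fewer cells of a type and less RNA per cell cannot be told apart.

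Total counts ran between 16630050 and 53586401 per library. The targeted gene, dm, encodes Myc. It had 83.6, 51.7, 56.9 and 43.6 CPM (reads scaled to a common library size with TMM factors) in females labelled Myc RNAi and 126, 84.6, 60.5 and 84.9 CPM in female controls, groups that overlapped (log2 difference -0.59, edgeR adjusted p = 0.0892). It had 30.6, 33.3, 35.7 and 58.9 CPM in males labelled Myc RNAi and 22.7, 19.8, 25.4 and 34.0 CPM in male controls, a direction against the label that did not pass either (log2 difference 0.65, edgeR adjusted p = 0.0619). The groups are therefore called by their labels. roX1, a male-specific RNA, lay between 0.332 and 1.89 CPM in female libraries and between 597 and 853 CPM in male libraries, as the sex labels have it. Male library 16, labelled Myc RNAi, stood apart: it held 31879 reads of 9 testis germline markers, against 11 to 20 reads in the other libraries of its group and 2 to 24 in the libraries of the other groups. Without it 10 P450 genes passed as higher and 31 as lower in males, against 12 and 31 with it, and the counts in females did not change.

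Levels are given in CPM, with means ± SD over 4 libraries, and as CPM per kilobase of exon (RPKM) where genes are compared with each other. Fold changes are on the log2 scale, with standard errors (SE). A gene passed the test when its edgeR adjusted p, corrected over all 9314 tested genes, was below 0.05.

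In libraries labelled Myc RNAi, Cyp9f2 stood first among the 82 genes by level per length, at 656 RPKM averaged over 8 libraries. Cyp6a23 at 291, Cyp9b2 at 250, Cyp6d5 at 213, Cyp12a4 at 156 and Cyp4p1 at 121 RPKM followed. Cyp6g1, the gene whose overexpression gives DDT and neonicotinoid resistance in field strains, was in place 12 at 55.0 RPKM, against place 2 in controls. Cyp28d1, linked to nicotine resistance, was in place 14 at 52.7 RPKM, against place 6 in controls, and Cyp4p1 was in place 6, against place 16 in controls.

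By RPKM averaged over the 8 control libraries, the order began with Cyp6d5 at 861, Cyp6g1 at 546, Cyp9f2 at 501, Cyp12a4 at 453 and Cyp6a23 at 432. Cyp28d1 at 373, Cyp9b2 at 352 and Cyp309a1 at 342 followed, and then came a gap to Cyp12c1 at 106 and Cyp4d1 at 84.3. Neighbours in this order overlapped in range over the control libraries: Cyp6d5 ran from 732 to 1052 RPKM, Cyp6g1 from 348 to 849, Cyp9f2 from 380 to 688 and Cyp12a4 from 392 to 533. Of these 10 genes only Cyp4d1 belonged to clan 4, and Cyp12a4 and Cyp12c1 to the mitochondrial clan. With Myc RNAi, 7 of the 10 fell and 1 rose in females, and 9 fell and 0 rose in males. Of all tested genes 17.6% fell and 18.5% rose in females, and 17.7% fell and 21.7% rose in males. The 10 genes were picked for high levels in the same control libraries, which tilts their count toward falls, so it is given only as a description.

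The summed level of the 82 genes was lower in both sexes labelled Myc RNAi. It came to 5156 ± 271 CPM in females labelled Myc RNAi and 8166 ± 652 CPM in female controls. It came to 4283 ± 227 CPM in males labelled Myc RNAi and 9879 ± 904 CPM in male controls (SD, n = 4 each). The highest library labelled Myc RNAi reached 5391 CPM in females and 4527 CPM in males, below the lowest controls, at 7419 CPM in females and 9066 CPM in males. Clan 3 made up most of the sum everywhere, from 74.4% in female controls to 80.3% in male controls. As a share of the counts, with no TMM factor, P450 transcripts made up 0.610 ± 0.034% in females labelled Myc RNAi and 0.717 ± 0.11% in female controls, and 0.498 ± 0.021% in males labelled Myc RNAi and 0.821 ± 0.033% in male controls. On this scale the ranges of the female groups overlapped, at 0.568 to 0.646% with Myc RNAi and 0.565 to 0.8285% in controls, and those of the male groups did not.

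**Figure D1:**
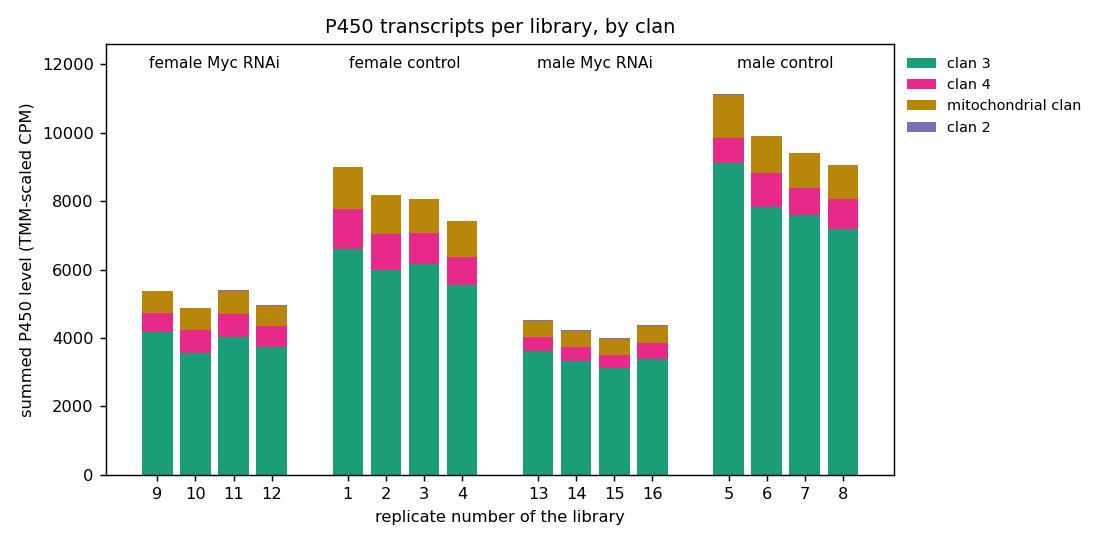
Summed TMM-scaled CPM of the 82 P450 genes in each of the 16 libraries, stacked by clan. Bars of the libraries labelled Myc RNAi reach at most 5391 CPM, and every control bar reaches 7419 CPM or more.

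More P450 genes fell than rose in the libraries labelled Myc RNAi. In females 27 of the 66 tested members fell, or 40.9%, where 17.6% of all tested genes fell, and 12 rose, or 18.2%, where 18.5% of all tested genes rose; 36.1% of all genes passed in either direction. In males 31 fell, or 47.0%, against 17.7% of all tested genes, and 12 rose, or 18.2%, against 21.7%; 39.4% of all genes passed in either direction. In each sex the 4 libraries labelled Myc RNAi and the 4 controls did not overlap for 39 members, or 59.1%, against 37.3% of all tested genes in females and 34.7% in males. The median log2 fold change of the tested members was -0.44 in females and -0.74 in males, and that of all tested genes was 0.00 in females and 0.05 in males. The share that rose was thus near that of all genes, and the share that fell was larger. With libraries scaled by total counts alone the splits were 17 higher and 20 lower in females and 14 higher and 24 lower in males; the median of all genes moved to 0.43 in females and 0.52 in males under this scaling. Of all tested genes 37.4% then rose and 7.21% fell in females, and 47.9% rose and 8.33% fell in males.

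The 2 sexes shared most of these calls. In both sexes 27 genes fell, which is 40.9% of the tested members, against 12.4% of all tested genes, and 9 rose, which is 13.6%, against 15.2%. No member passed in opposite directions. Cyp304a1, Cyp313a4, Cyp6a23 and Cyp9b2 passed as lower in males and did not pass in females. Cyp4e1, Cyp6d4 and Cyp9f2 passed as higher in females and not in males, and Cyp312a1, Cyp317a1 and Cyp4ac3 in males and not in females. These 10 are not shown to differ between the sexes, since none of them passed the test of that difference. The remaining 20 tested members passed in neither sex. The sign of the fold change was the same in females and males for 59 of the 66 tested members (Pearson's r 0.83, Spearman's rho 0.86 across genes, given as a description since genes share libraries).

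**Figure D2:**
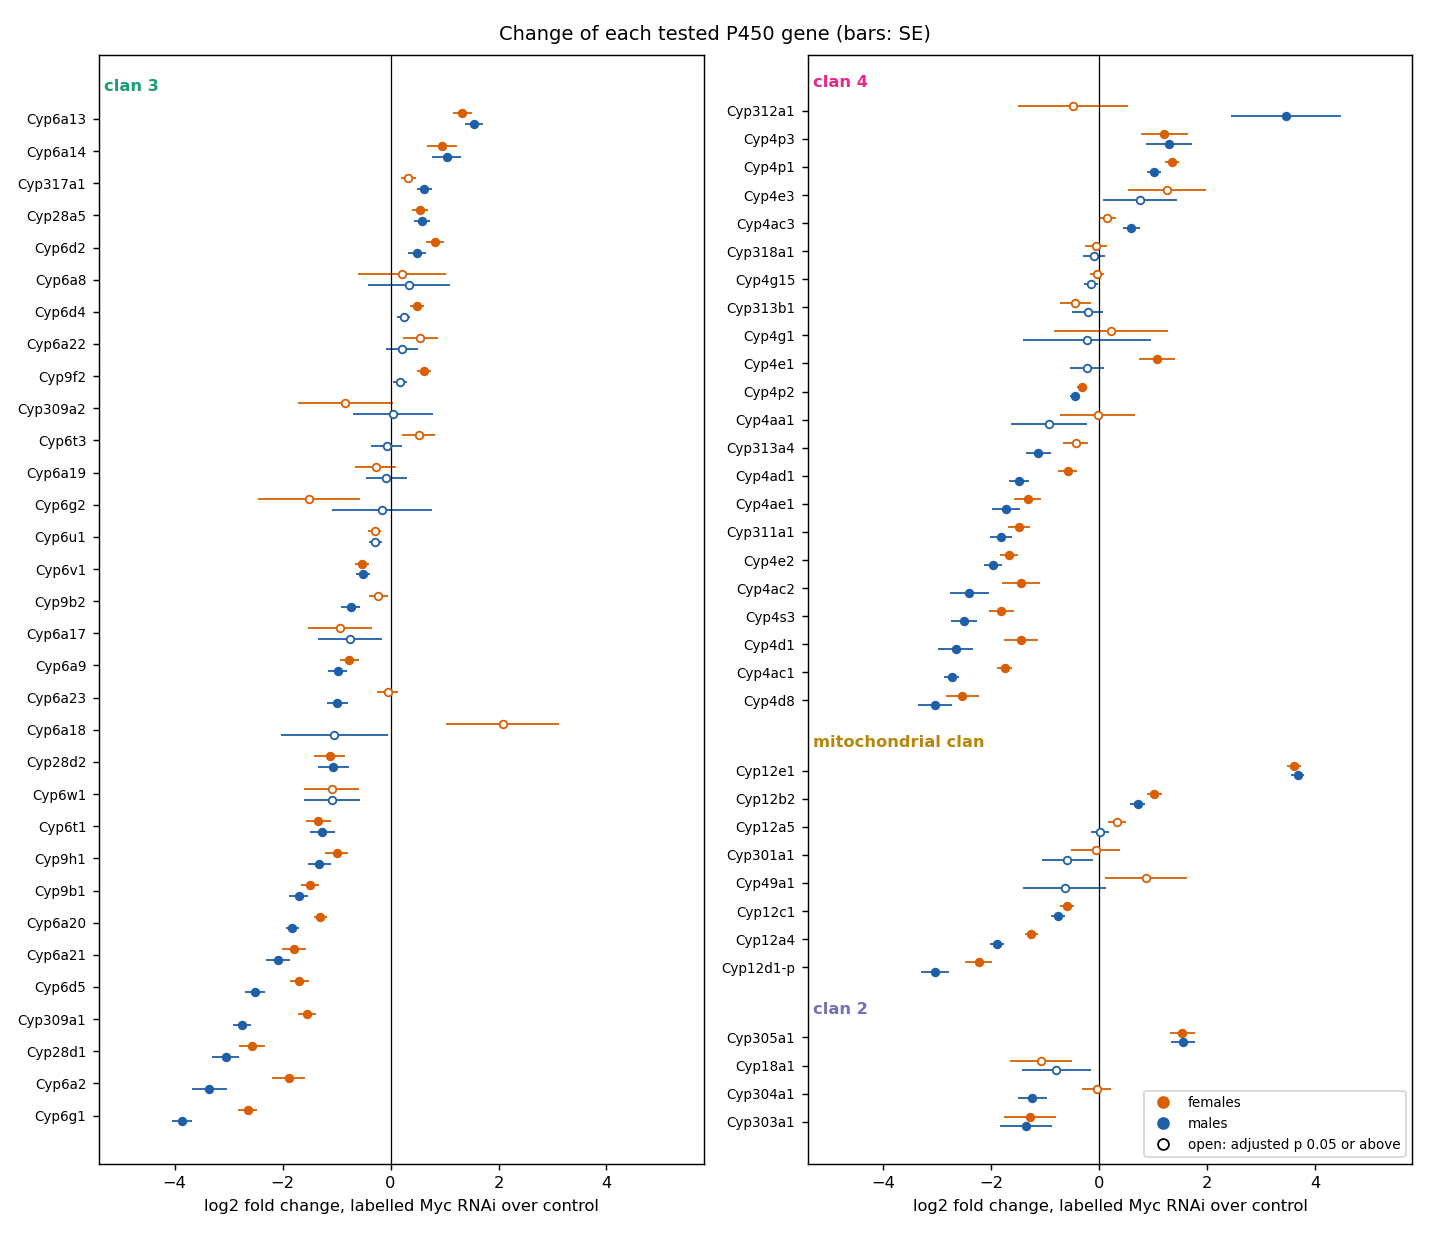
Log2 fold change of each tested P450 gene, libraries labelled Myc RNAi over controls, in females (orange) and males (blue), with SE bars and filled symbols for an edgeR adjusted p below 0.05. The largest fall is that of Cyp6g1 in clan 3, at -2.65 in females and -3.87 in males, and the largest rise seen in both sexes is that of Cyp12e1 in the mitochondrial clan, at 3.60 and 3.67.

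The clan and family counts that follow are to be read beside all tested genes. Of those, 17.6% fell and 18.5% rose in females, and 17.7% fell and 21.7% rose in males. The counts were not tested against these shares. In clan 3, 13 of 32 tested members fell in females and 15 in males, while 6 rose in females and 5 in males. Within it the Cyp6 family had 22 tested members, of which 8 fell in females and 9 in males, and 4 rose in females and 3 in males. Cyp6g1 (2R:12185667-12188431 on dm6) showed the largest fall. Its level was 131, 132, 148 and 104 CPM in females labelled Myc RNAi, against 912, 726, 722 and 867 CPM in female controls. It was 119, 111, 92.1 and 75.3 CPM in males labelled Myc RNAi, against 1761, 1351, 1252 and 1462 CPM in male controls. All 8 libraries labelled Myc RNAi lay below all 8 controls. The log2 fold change was -2.65 (SE 0.17, edgeR adjusted p = 4.61e-08) in females and -3.87 (SE 0.18, edgeR adjusted p = 4.38e-10) in males.

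Cyp6d5 (3R:14029228-14031483), reported among the genes that respond to xenobiotics, was the most abundant P450 of the control gut. It had 541, 354, 607 and 376 CPM in females labelled Myc RNAi, against 1725, 1541, 1531 and 1261 CPM in female controls. In males labelled Myc RNAi it had 219, 225, 199 and 268 CPM, against 1484, 1283, 1266 and 1201 CPM in male controls. Neither pair of groups overlapped, and the log2 fold change was -1.69 (SE 0.18) in females and -2.51 (SE 0.18) in males, with edgeR adjusted p = 3.51e-06 and 4.27e-08. Its relatives of the same subfamily moved the other way: Cyp6d2 rose by 0.82 in females and 0.50 in males, and Cyp6d4 rose by 0.49 in females, with a value of 0.24 in males that did not pass (edgeR adjusted p = 0.147). The call of Cyp6d2 in males ended in 4 of the fits that left out 1 library, those without male controls 6, 7 or 8 or male library 13, with edgeR adjusted p between 0.0623 and 0.0786. Much of Cyp6d2 overlaps nsr on the opposite strand, 897 bp of exon, and reads of the pair could have been mixed or dropped if counting ignored strand.

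Cyp6a2, known for DDT metabolism and for induction by phenobarbital, was less abundant and fell steeply. It had 4.08, 2.16, 4.80 and 1.66 CPM in females labelled Myc RNAi and 8.13, 17.6, 10.96 and 11.02 CPM in female controls. It had 3.12, 3.48, 2.27 and 2.74 CPM in males labelled Myc RNAi and 39.3, 27.6, 24.9 and 27.4 CPM in male controls. The control males were thus the high group, and neither pair of groups overlapped. The log2 fold change was -1.89 (SE 0.30, edgeR adjusted p = 0.000132) in females and -3.35 (SE 0.32, edgeR adjusted p = 5.15e-07) in males.

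Of the other Cyp6 genes, Cyp6a9, Cyp6a20, Cyp6a21, Cyp6t1 and Cyp6v1 fell in both sexes. Cyp6a20, which has been tied to male aggression, fell by 1.30 in females and 1.82 in males. Cyp6a21 fell by 1.78 in females and 2.08 in males, and Cyp6v1, which shares 557 bp of exon with an antisense RNA, by 0.53 and 0.51. Cyp6a9 fell by 0.77 in females and 0.98 in males, and its female call ended with total counts alone, at -0.35 (edgeR adjusted p = 0.126). Cyp6a13 and Cyp6a14 rose in both sexes. Cyp6a13 (2R:8570499-8572147) had 107, 102, 111 and 112 CPM in females labelled Myc RNAi and 36.2, 54.4, 40.4 and 40.8 CPM in female controls. It had 138, 86.0, 115.1 and 140 CPM in males labelled Myc RNAi and 49.8, 35.1, 44.7 and 35.6 CPM in male controls. The groups did not overlap in either sex, and the log2 fold change was 1.33 (SE 0.17, edgeR adjusted p = 1.95e-05) in females and 1.55 (SE 0.17, edgeR adjusted p = 2.76e-06) in males.

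Cyp28d1 (2L:5210460-5212445) fell in both sexes. It had 91.1, 52.7, 135 and 79.0 CPM in females labelled Myc RNAi and 504, 556, 581 and 475 CPM in female controls. It had 99.5, 75.8, 57.9 and 89.9 CPM in males labelled Myc RNAi and 720, 775, 602 and 609 CPM in male controls. All libraries labelled Myc RNAi were below all controls, and the log2 fold change was -2.56 (SE 0.24, edgeR adjusted p = 1.35e-06) in females and -3.06 (SE 0.25, edgeR adjusted p = 1.05e-07) in males. Its neighbour Cyp28d2 fell by 1.13 in females, with means of 1.72 CPM with Myc RNAi and 3.77 CPM in controls, and by 1.06 in males, with means of 1.98 CPM and 4.15 CPM and 1 control library within the range of the Myc RNAi group. The third tested member of the family, Cyp28a5, rose by 0.55 in females and 0.59 in males, with means of 135 CPM in females labelled Myc RNAi and 92.3 CPM in female controls. With total counts alone the calls of Cyp28d2 ended in both sexes, at -0.71 in females and -0.62 in males (edgeR adjusted p = 0.0971 and 0.122).

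Cyp309a1 (2L:2562483-2564830) had 186, 130, 138 and 134 CPM in females labelled Myc RNAi and 445, 374, 483 and 420 CPM in female controls. It had 128, 182, 110 and 131 CPM in males labelled Myc RNAi and 971, 992, 1001 and 772 CPM in male controls. The ranges of the sexes overlapped with Myc RNAi and not in controls. The log2 fold change was -1.55 (SE 0.17, edgeR adjusted p = 4.57e-06) in females and -2.75 (SE 0.18, edgeR adjusted p = 9.11e-09) in males. Cyp309a2, the only other member of the family, was near the limit of detection, with 0 to 29 reads in 15 libraries and 109 reads in male library 16.

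The Cyp9 family held the P450 gene that ranked first with Myc RNAi. Cyp9f2 (3R:12403340-12406028) had 1163, 1174, 1193 and 1177 CPM in females labelled Myc RNAi and 845, 667, 819 and 716 CPM in female controls, a rise of 0.63 (SE 0.13, edgeR adjusted p = 0.00119). In males labelled Myc RNAi it had 1304, 976, 1115 and 1119 CPM and in male controls 1209, 924, 937 and 933 CPM, groups that overlapped (log2 difference 0.18, edgeR adjusted p = 0.295). Cyp9b1 fell in both sexes, by 1.49 in females and 1.70 in males. Cyp9b2 fell in males by 0.74 and had a log2 fold change of -0.23 in females (edgeR adjusted p = 0.367); with total counts alone its value in males was -0.23 (edgeR adjusted p = 0.105). Cyp9h1 fell by 0.995 in females and 1.32 in males.

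**Figure D3:**
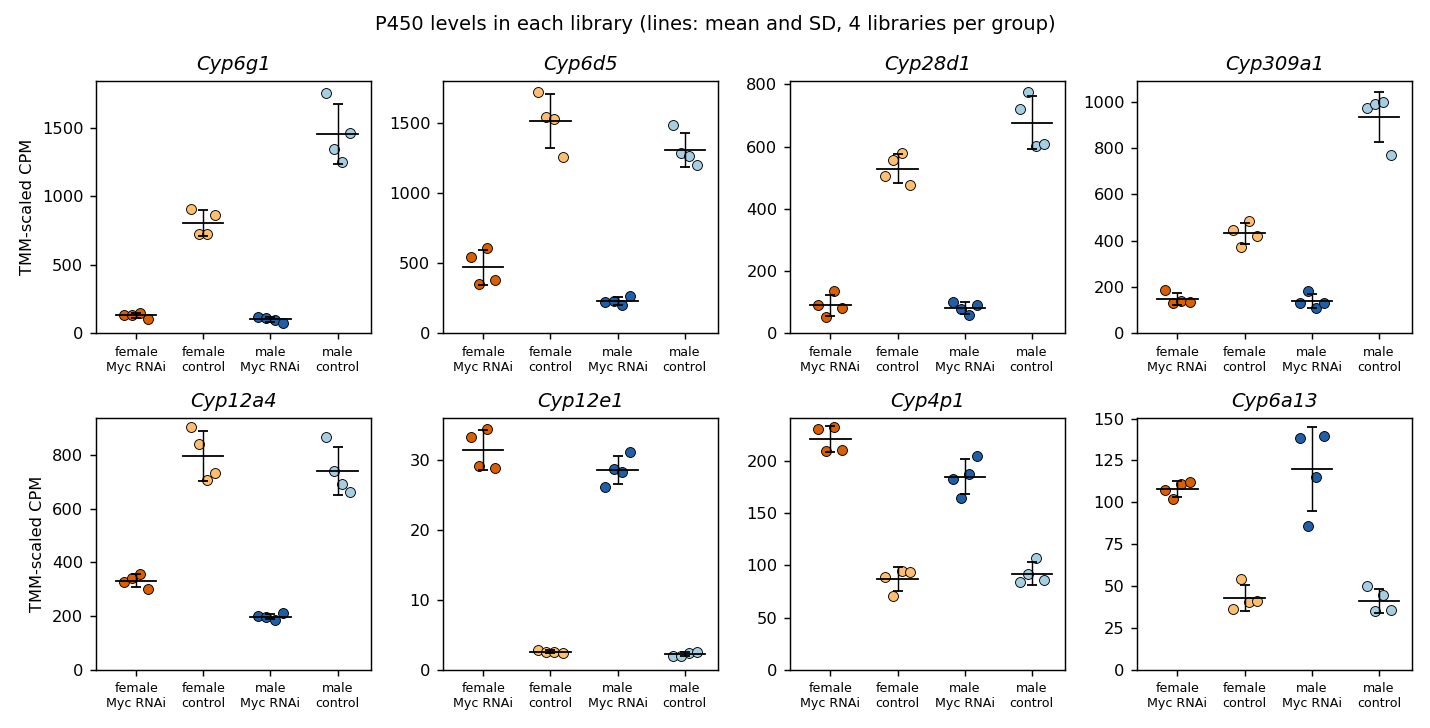
TMM-scaled CPM of 8 P450 genes in each library, with a separate linear axis from 0 for each gene and lines for mean and SD of 4 libraries. Cyp6g1, Cyp6d5, Cyp28d1, Cyp309a1 and Cyp12a4 are lower, and Cyp12e1, Cyp4p1 and Cyp6a13 higher, in every library labelled Myc RNAi than in every control of the same sex.

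For clan 4 the background is again the shares of all tested genes given with clan 3. In this clan, 10 of 22 tested members fell in females and 11 in males, while 3 rose in females and 4 in males. The Cyp4 family, which includes fatty acid hydroxylases, made up 17 of these 22, with 9 falls and 3 rises in each sex. Cyp4d8 (3L:7493557-7496197) showed the largest fall of the clan. It had 5.45, 7.37, 10.1 and 10.5 CPM in females labelled Myc RNAi and 72.0, 51.9, 40.6 and 30.5 CPM in female controls. It had 7.80, 4.60, 4.61 and 5.74 CPM in males labelled Myc RNAi and 30.1, 67.5, 41.9 and 49.3 CPM in male controls. The controls spread over more than 2-fold and still lay above every library labelled Myc RNAi, and the log2 fold change was -2.54 (SE 0.30, edgeR adjusted p = 9.38e-06) in females and -3.04 (SE 0.31, edgeR adjusted p = 1.06e-06) in males.

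Cyp4d1 (X:2159145-2162180), the most abundant gene of the clan per length in controls, had 66.4, 92.3, 114 and 97.7 CPM in females labelled Myc RNAi and 321, 337, 188 and 170 CPM in female controls. In males labelled Myc RNAi it had 19.9, 12.6, 16.5 and 32.9 CPM, against 88.6, 174, 103 and 160 CPM in male controls. Females labelled Myc RNAi lay above males labelled Myc RNAi, the control sexes overlapped slightly, and Cyp4d1 fell by 1.45 (SE 0.31, edgeR adjusted p = 0.0016) in females and 2.66 (SE 0.33, edgeR adjusted p = 7.83e-06) in males. Cyp4s3 fell by 1.81 in females and 2.52 in males, Cyp4e2 by 1.68 and 1.97, Cyp4ae1 by 1.33 and 1.73, and Cyp311a1 by 1.49 and 1.83. Cyp4s3 shares 461 bp of exon with Rab3-GEF on the opposite strand, and Cyp4ae1 shares 1608 bp with an antisense RNA, so their reads are uncertain in the same way as those of Cyp6d2. Cyp4ad1 fell by 0.59 in females and 1.49 in males, and the female call ended without female control 1 (edgeR adjusted p = 0.0673), without female library 9 (0.0557) and with total counts alone (0.534).

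Cyp4p1 (2R:9240041-9242139) was the most abundant member of clan 4 in libraries labelled Myc RNAi. It had 231, 210, 232 and 211 CPM in females labelled Myc RNAi and 89.1, 70.5, 94.3 and 93.6 CPM in female controls. It had 182, 164, 188 and 205 CPM in males labelled Myc RNAi and 83.6, 91.4, 107 and 85.7 CPM in male controls. No library labelled Myc RNAi overlapped with a control of its sex, and the log2 fold change was 1.35 (SE 0.13, edgeR adjusted p = 1.28e-06) in females and 1.01 (SE 0.12, edgeR adjusted p = 7.38e-06) in males.

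The call of Cyp312a1 in males rested on library 16. It had 0.624, 0.179, 0.508 and 13.9 CPM in males labelled Myc RNAi, the last in that library, and between 0.234 and 0.598 CPM in male controls. Its log2 fold change of 3.46 (edgeR adjusted p = 0.0125) became 0.32 (edgeR adjusted p = 0.669) without library 16, the one with the testis germline reads. The part of those reads in the value was not tested. Cyp310a1, which was not tested, had 105 reads in library 16 and 1 to 4 in the other libraries of its group.

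The shares of all tested genes given with clan 3 are the background for the mitochondrial clan too. Among its genes taken in by the symbol rule, 3 of 8 tested fell and 2 rose in each sex, all of them in the Cyp12 family. P450 genes with other names are not counted here. Cyp12e1 (3R:10434789-10436704) had the largest rise of any P450 gene called in both sexes. It had 33.3, 29.2, 34.4 and 28.9 CPM in females labelled Myc RNAi and 2.87, 2.51, 2.57 and 2.39 CPM in female controls. It had 26.2, 28.7, 28.2 and 31.1 CPM in males labelled Myc RNAi and 1.99, 1.97, 2.40 and 2.57 CPM in male controls. The spread within each group was small beside the difference, which was 3.60 (SE 0.12, edgeR adjusted p = 2.34e-11) in females and 3.67 (SE 0.12, edgeR adjusted p = 1.56e-11) in males.

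Cyp12a4 (3R:19135158-19137136), whose overexpression gives resistance to the insecticide lufenuron, fell. It had 327, 343, 358 and 300 CPM in females labelled Myc RNAi and 904, 842, 707 and 735 CPM in female controls. It had 199, 198, 186 and 211 CPM in males labelled Myc RNAi and 866, 742, 692 and 665 CPM in male controls. Both sexes were separated from their controls, and males labelled Myc RNAi lay below females labelled Myc RNAi. The log2 fold change was -1.26 (SE 0.12, edgeR adjusted p = 1.77e-06) in females and -1.89 (SE 0.13, edgeR adjusted p = 1.44e-08) in males.

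Cyp12d1-p, known for DDT resistance and phenobarbital induction, had 1.71 ± 0.47 CPM in females labelled Myc RNAi and 8.19 ± 0.93 CPM in female controls, and 1.25 ± 0.47 CPM in males labelled Myc RNAi and 10.3 ± 0.67 CPM in male controls. It fell by 2.24 in females and 3.05 in males (edgeR adjusted p = 6.11e-06 and 2.05e-07). Its near-identical copy Cyp12d1-d had 1 read in the whole table, so reads of the pair may have been dropped or given to Cyp12d1-p, and the values hold for the pair at most. Cyp12c1 fell by 0.60 in females and 0.77 in males, and these calls ended with total counts alone, at -0.16 and -0.28 (edgeR adjusted p = 0.291 and 0.0553). Cyp12b2 rose by 1.02 in females and 0.71 in males. Cyp12a5 did not pass in either sex, with log2 fold changes of 0.32 and 0.01. Outside the family, Cyp301a1, known from cuticle formation, and Cyp49a1 stayed at means below 3 CPM and did not pass.

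Of clan 2 the symbol rule took in 4 genes, all of low level and all tested. P450 genes of ecdysone synthesis with other names are not counted here. Cyp305a1 had 12.1, 12.6, 14.8 and 14.7 CPM in females labelled Myc RNAi and 3.56, 4.01, 3.49 and 7.70 CPM in female controls. It had 15.6, 19.2, 18.6 and 16.2 CPM in males labelled Myc RNAi and 6.27, 4.26, 7.38 and 5.86 CPM in male controls. It was higher in all libraries labelled Myc RNAi than in any control, and rose by 1.54 (SE 0.23, edgeR adjusted p = 6.71e-05) in females and 1.56 (SE 0.22, edgeR adjusted p = 3.49e-05) in males. Cyp304a1 fell by 1.25 in males and had a log2 fold change of -0.05 in females. Cyp303a1, which is needed for sensory bristles, was below 1 CPM in every library and passed as lower in both sexes, at -1.28 and -1.36, with 919 bp of its exons shared with heix on the opposite strand. Its female call ended in most of the fits that left out 1 library and with limma voom (limma adjusted p = 0.0514), and its male call ended in several of those fits. Both calls ended with total counts alone (edgeR adjusted p = 0.156 in females and 0.137 in males) and with no filter (0.184 and 0.103). Cyp18a1, which inactivates ecdysteroids, did not pass, at -1.08 and -0.79.

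Physical neighbours did not always have the same call. With genes grouped where their starts lie within 20 kb of each other, 44 of the 82 members fell into 15 groups, and 12 of these groups held more than 1 tested member, 35 in all. The tested members of a group had different calls in 9 of the 12 groups in females and 8 in males, and calls of opposite direction in 2 groups in females and 3 in males. All tested members of a group had the same call in 3 groups in females and 4 in males. A member that passed beside one that did not counts here as a different call, and the difference between neighbours was not tested, nor was the same share computed for neighbours among all genes. Both opposite pairings in females rest on a call that changed: that of Cyp4e1 ended without female library 9, and Cyp4p2 changed sign with total counts alone.

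The Cyp4p genes on 2R had calls of both directions in both sexes. Cyp4p2 (2R:9237512-9239831) had 69.7, 64.9, 71.1 and 67.7 CPM in females labelled Myc RNAi and 85.9, 93.8, 81.3 and 80.0 CPM in female controls. In males labelled Myc RNAi it had 50.7, 56.7, 54.5 and 55.8 CPM and in male controls 72.3, 74.7, 80.8 and 72.7 CPM. It fell by 0.32 in females and 0.46 in males (edgeR adjusted p = 0.0116 and 0.000785), while Cyp4p1 and Cyp4p3 on its right rose. This direction of Cyp4p2 depends on the scaling, since total counts alone gave 0.12 in females and 0.02 in males, neither of which passed. Cyp4p3 had means of 1.32 CPM in females labelled Myc RNAi and 0.568 CPM in female controls. Its rise of 1.20 in females ended in most of the fits that left out 1 library. Its rise of 1.28 in males ended in several of them, the fit without male library 16 included.

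In the Cyp4ac group on 2L, Cyp4ac1 and Cyp4ac2 fell and Cyp4ac3, next to them, did not. Cyp4ac1 (2L:5264001-5265899) had 31.2, 32.1, 37.99 and 31.8 CPM in females labelled Myc RNAi and 139, 106, 107 and 97.5 CPM in female controls. It had 12.5, 17.9, 15.97 and 16.8 CPM in males labelled Myc RNAi and 107, 104, 103 and 109 CPM in male controls. The control groups of the sexes overlapped, and the log2 fold change was -1.75 (SE 0.13, edgeR adjusted p = 2.04e-07) in females and -2.73 (SE 0.14, edgeR adjusted p = 1.1e-09) in males. Cyp4ac2 had means of 0.924 CPM in females labelled Myc RNAi and 2.58 CPM in female controls, and fell by 1.46 in females and 2.41 in males. Cyp4ac3 rose by 0.59 in males (edgeR adjusted p = 0.00686), with means of 22.4 CPM in males labelled Myc RNAi and 15.1 CPM in male controls, and was at 0.14 in females.

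In other groups a member that fell stood beside members that did not pass. Cyp12a4 fell and Cyp12a5, next to it, did not pass. Cyp6g1 fell, and Cyp6g2, known from the corpus allatum, and Cyp6t3 did not pass. The value of Cyp6g2 was -1.51 in females (SE 0.94, edgeR adjusted p = 0.237) and -0.15 in males. Cyp6g2 varied from 0.623 to 23.7 CPM in female controls alone, and it shares 94 bp of exon with Cyp6g1 on the other strand. In the group of 9 genes that holds most of the Cyp6a subfamily, Cyp6a9, Cyp6a20 and Cyp6a21 fell in both sexes. Cyp6a23, the most abundant gene of that group, had means of 543 CPM in females labelled Myc RNAi and 563 CPM in female controls, and fell by 0.99 in males (edgeR adjusted p = 0.000756); with total counts alone that value was -0.49 (edgeR adjusted p = 0.0806). Cyp6a17, tied to temperature preference, did not pass, at -0.94 in females and -0.75 in males. Cyp317a1, at the end of the group, rose by 0.63 in males; it shares 1331 bp of exon with Kank on the opposite strand, and Cyp6a9 shares 397 bp with Cyp6a19, so reads of these are uncertain too. Cyp4e1 rose in females by 1.07 beside Cyp4e2, which fell, and that call ended without female library 9 (0.77, edgeR adjusted p = 0.0844). Cyp4e1 shares 82 bp of exon with Mal-A1 on the opposite strand, so its reads are uncertain as well. The pairs Cyp28d1 and Cyp28d2, Cyp6a13 and Cyp6a14, and Cyp4d1 and Cyp4ae1 moved together.

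**Figure D4:**
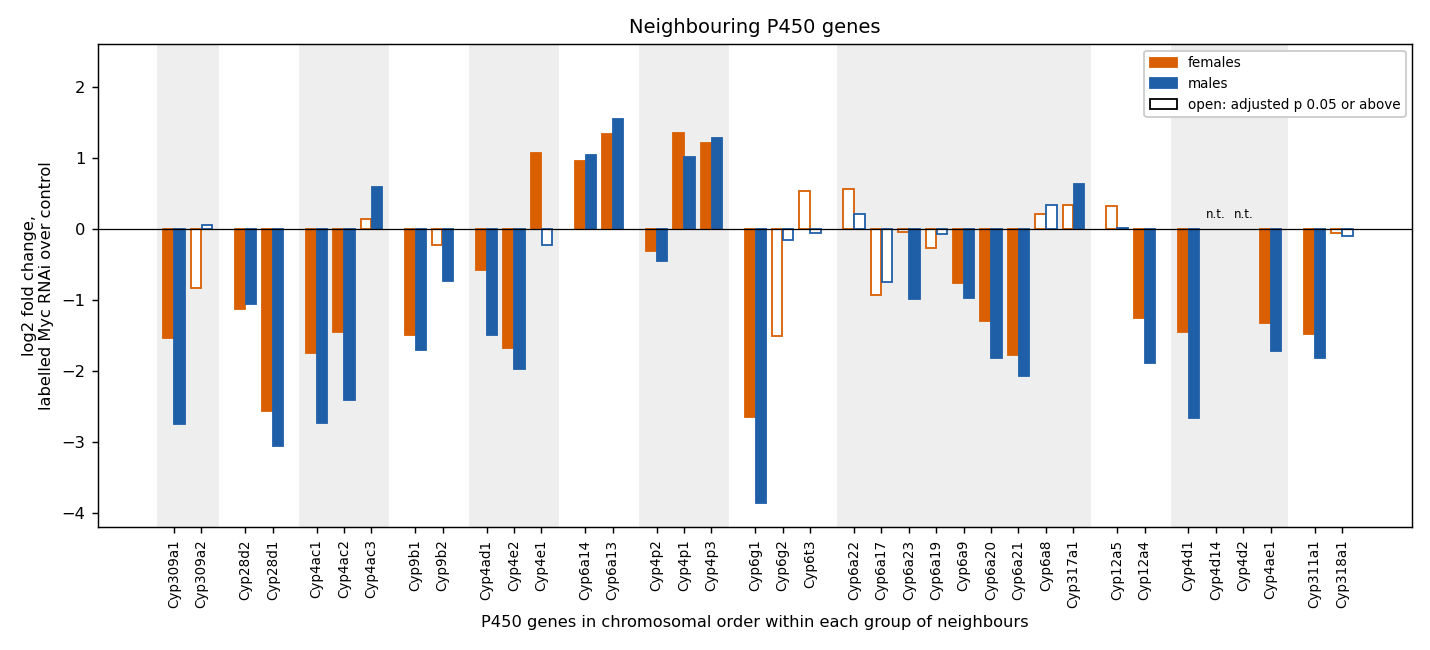
Log2 fold changes, libraries labelled Myc RNAi over controls, of P450 genes in groups of chromosomal neighbours, in chromosomal order within each shaded or plain block; open bars did not pass, and n.t. marks genes with too few reads to test. With TMM scaling (not with total counts alone) Cyp4p2 stands below 0 beside Cyp4p1 and Cyp4p3 above it, and Cyp12a5 near 0 beside Cyp12a4 at -1.26 in females and -1.89 in males.

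Most P450 falls were larger in males. The female log2 fold change minus the male one was above 0 in 45 of the 66 tested members, against 46.9% of all tested genes, and its median was 0.32, against -0.03 for all tested genes. Among the 27 members that fell in both sexes, 24 had the larger fall in males. The same count was not made for all genes that fell in both sexes, so it is a description of the members only. The test of the difference passed for 3 members with a value above 0, or 4.55%, where 0.870% of all tested genes passed in that direction, and for 0 members with a value below 0, where 0.204% did. At 3 members this count is small, and it changed with the method: it was 8 with DESeq2 and 0 with total counts alone or without male library 15.

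The 3 genes were Cyp6g1, Cyp309a1 and Cyp4ac1. The difference was 1.22 (SE 0.23) for Cyp6g1, 1.21 (SE 0.23) for Cyp309a1 and 0.98 (SE 0.19) for Cyp4ac1, each with edgeR adjusted p = 0.0192. Between females and males labelled Myc RNAi, Cyp6g1 and Cyp309a1 had log2 values of 0.37 and 0.09 that did not pass, and in controls they were lower in females, at -0.85 and -1.12. Cyp4ac1 was higher in females labelled Myc RNAi than in males labelled Myc RNAi, by 1.07 (edgeR adjusted p = 0.000217), and had a value of 0.09 between female and male controls. Without male library 15 the adjusted p was 0.0544 for Cyp6g1, 0.0544 for Cyp309a1 and 0.05 for Cyp4ac1, and with total counts alone it was 0.0691, 0.0883 and 0.112; Cyp309a1 was also lost without male control 6 (0.0552).

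Between the sexes of the same genotype fewer P450 genes passed. Females labelled Myc RNAi had 10 members higher and 1 lower than males labelled Myc RNAi, which is 15.2% and 1.52% of the tested members, against 2.85% and 2.72% of all tested genes, 5.56% in either direction. Female controls had 6 members higher and 8 lower than male controls, or 9.09% and 12.1%, against 5.02% and 5.27% of all tested genes, 10.3% in either direction. The median sex difference of the tested members, females over males, was 0.23 with Myc RNAi and -0.07 in controls. In the controls the higher count was 3 without female control 1, male control 6 or male control 7, and in a fit to the 8 control libraries alone.

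Cyp318a1, Cyp4ae1 and Cyp4g15 were higher in females in both genotypes. The reads of Cyp4ae1 are uncertain, since it shares 1608 bp of exon with an antisense RNA. Cyp318a1 had 7.16, 5.55, 6.74 and 5.63 CPM in females labelled Myc RNAi and 2.93, 3.04, 2.64 and 2.07 CPM in males labelled Myc RNAi, a difference of 1.23 (SE 0.21, edgeR adjusted p = 0.00248). It had 7.02, 6.66, 6.93 and 5.72 CPM in female controls and 4.18, 2.74, 2.20 and 2.40 CPM in male controls, a difference of 1.20 (SE 0.21, edgeR adjusted p = 0.00189). Its levels kept apart by sex and not by genotype. Cyp4g15, a relative of the hydrocarbon-making Cyp4g1, behaved alike, with sex differences of 0.86 with Myc RNAi and 0.75 in controls. Cyp4d1 had the largest sex difference that passed, 2.16 (SE 0.32, edgeR adjusted p = 0.00102) with Myc RNAi, and 0.95 (edgeR adjusted p = 0.0613) in controls. Cyp6d5, Cyp4ad1 and Cyp12a4 were higher in females with Myc RNAi by 1.04, 1.17 and 0.74, and had values of 0.21, 0.26 and 0.10 in controls. The calls of Cyp6d4 and Cyp9b1 with Myc RNAi ended in several fits that left out 1 library.

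Cyp6d2 was the 1 P450 gene that passed as lower in females in both genotypes, at the edgeR threshold used here. Its reads are uncertain here too, since 897 bp of its exons overlap nsr on the opposite strand. With Myc RNAi the number lower in females was 2 with DESeq2 and 1 to 3 with 1 library left out. Cyp6d2 had 20.5, 14.6, 19.3 and 14.9 CPM in females labelled Myc RNAi and 41.2, 33.1, 35.2 and 34.9 CPM in males labelled Myc RNAi, a difference of -1.06 (SE 0.17, edgeR adjusted p = 0.00156). It had 7.66, 10.3, 8.84 and 12.5 CPM in female controls and 33.2, 24.2, 23.8 and 21.8 CPM in male controls, a difference of -1.39 (SE 0.17, edgeR adjusted p = 0.000144). Female libraries lay below male libraries in both genotypes. Cyp6t3 passed in controls, at -1.29, and was at -0.69 with Myc RNAi, where its groups did not overlap (edgeR adjusted p = 0.2). Cyp6a2, Cyp6g1, Cyp309a1, Cyp12b2, Cyp6t3, which has a reported part in ecdysone synthesis, Cyp6a23 and Cyp4e1 were lower in female than in male controls, by 0.63 to 1.32 in log2 terms. The calls of Cyp6a23 and Cyp4e1 in controls ended in several fits that left out 1 library, as did those of Cyp313b1, Cyp4ac3 and Cyp6t1 among the higher genes.

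The X chromosome carries 14 of the 82 members, 10 of them tested, and the following was noticed after the values had been seen. Of the 10, 4 were higher in females than in males and 0 lower, both with Myc RNAi and in controls. Among all tested genes of the X, 5.09% were higher and 4.44% lower in females with Myc RNAi, and 8.10% were higher and 6.40% lower in controls.

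**Figure D5:**
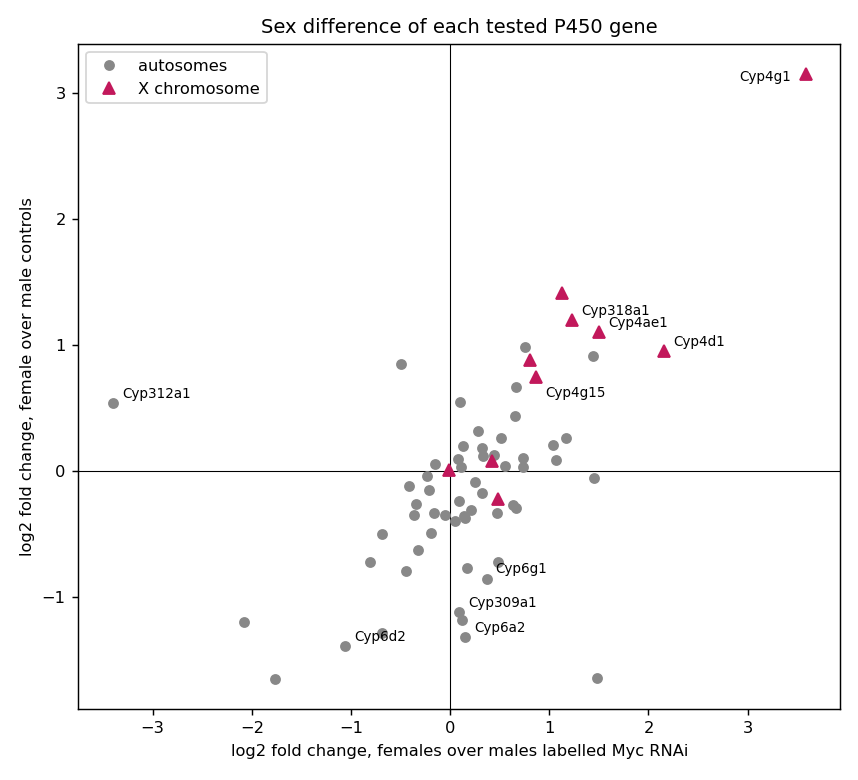
Sex difference of each of the 66 tested P450 genes as log2 fold change of females over males, in the libraries labelled Myc RNAi (horizontal) and in controls (vertical), with triangles for the X chromosome. Cyp318a1, Cyp4ae1 and Cyp4g15 lie above 0 on both axes and Cyp6d2 below 0 on both, at -1.06 and -1.39, while Cyp6g1, Cyp309a1 and Cyp6a2 lie below 0 in controls and near 0 with Myc RNAi.

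Several members varied more between libraries of one group than between groups. Cyp4g1, the oenocyte enzyme that makes cuticular hydrocarbons, had 0.636, 53.7, 13.3 and 27.4 CPM in females labelled Myc RNAi and 12.1, 0.182, 58.1 and 11.02 CPM in female controls, and between 0.402 and 4.94 CPM in male libraries. It passed no test. The 8 fat body markers also varied, from 47.5 to 159 CPM summed in females labelled Myc RNAi and from 93.6 to 274 CPM in female controls. The sums were 5.25 to 14.4 CPM in males labelled Myc RNAi and 6.84 to 26.3 CPM in male controls. The markers include the female-specific yolk protein genes Yp1, Yp2 and Yp3, so these sums do not compare amounts of fat body between the sexes. The part of the markers in the level of Cyp4g1 was not tested. Cyp4aa1, Cyp6g2, Cyp6a17, Cyp6a18 and Cyp49a1 were likewise spread, each by more than 4-fold within a group of females, and did not pass. Cyp6a8, known for induction by phenobarbital and caffeine, had 9.78 CPM in male library 14 and 0.339 to 1.06 CPM in the other males labelled Myc RNAi, and 1.58 to 4.44 CPM in male controls. Its log2 fold change in males was 0.33 (edgeR adjusted p = 0.77) and became -1.55 (edgeR adjusted p = 0.0398) without that library. Cyp309a2 was at 0.05 in males and at -1.80 (edgeR adjusted p = 0.0287) without library 16.

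The 16 members that were not tested held few counted reads. Cyp313a5, Cyp4d14, Cyp4d2 and Cyp9c1 had 0 in every library. In the annotation nearly all exon sequence of Cyp4d14 (1647 of 1694 bp), Cyp4d2 (2436 of 2467 bp) and Cyp9c1 (1711 of 1743 bp) is shared with genes on the opposite strand. How reads in shared exons were counted is not given in the sources used here, so a count of 0 does not show that these genes are silent. Cyp313a5 shares no exon. The most read of the 16 were Cyp310a1 with 152 reads in all, Cyp4d20 with 99 and Cyp316a1 with 78. With no filter on low counts 12 of the 16 could be fitted, and 1 passed in females, Cyp313a1 at -4.39 (54 reads in all, edgeR adjusted p = 0.0176), and 1 in males, Cyp316a1 at -2.55 (edgeR adjusted p = 0.0292).

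P450s need electron donors, and a list of 6 genes drawn up as partners was examined beside them. In females 1 rose and 1 fell, 16.7% each, against 18.5% and 17.6% of all tested genes. In males 1 rose and 4 fell, 16.7% and 66.7%, against 21.7% and 17.7%. Cpr, the NADPH reductase of microsomal P450s, had means of 433 CPM in females labelled Myc RNAi and 465 CPM in female controls, and of 324 CPM in males labelled Myc RNAi and 433 CPM in male controls. Its log2 fold change was -0.10 in females (edgeR adjusted p = 0.63) and it fell by 0.41 in males (edgeR adjusted p = 0.0288). Cyt-b5, which passes electrons to some P450s, was at -0.13 in females and fell by 0.56 in males. Cyt-b5-r, a cytochrome b5-related gene that is not established as an electron donor of P450s, fell by 2.52 in females and 2.81 in males. It was the 1 gene of the list that fell in females and 1 of the 4 that fell in males. The gene dare, the reductase of the mitochondrial electron chain, rose by 0.47 and 0.55. Of 6 genes of haem synthesis measured, 1 rose in females, the hydroxymethylbilane synthase gene at 0.85, and 0 passed in males. The 1 rise is 16.7% of the list, near the 18.5% of all tested genes that rose in females.

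Of 17 tested genes of xenobiotic response and hormone reception, 3 rose and 3 fell in females and 4 rose and 4 fell in males. That is 17.6% in each direction in females, against 18.5% higher and 17.6% lower among all tested genes, and 23.5% in each direction in males, against 21.7% and 17.7%, so the list as a whole is near the background. Hr96, a nuclear receptor for xenobiotic response, rose by 0.49 in females and 0.38 in males, EcR, the ecdysone receptor, by 0.69 and 0.70, and its partner usp by 0.36 and 0.29. Keap1, the inhibitor of the detoxification regulator cnc, fell by 1.05 in females and 1.80 in males. The level of cnc itself was at -0.28 in females and -0.27 in males and did not pass (edgeR adjusted p = 0.0978 and 0.104). ERR, a receptor that controls metabolic genes, fell by 0.98 and 1.51, and gce, a juvenile hormone receptor, by 0.69 and 1.08. Kr-h1, a juvenile hormone response gene, fell by 1.63 in males, where Hr4 rose by 1.07.

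Among the P450 genes of ecdysone synthesis that carry their own names, 6 were in the table and 2 had enough reads to test. shd, which makes the active hormone from ecdysone, had means of 0.484 CPM in females labelled Myc RNAi and 3.52 CPM in female controls, and of 0.327 CPM in males labelled Myc RNAi and 1.25 CPM in male controls. It fell by 2.82 in females and 1.83 in males (edgeR adjusted p = 0.000294 and 0.00711). phm did not pass, and spo, spok, dib and sad averaged below 0.5 CPM in each group.

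The labelled tissue was checked with marker lists, several of which moved between the same groups. The counts of each list stand beside all tested genes, of which 18.5% rose and 17.6% fell in females, and 21.7% rose and 17.7% fell in males. Of 9 enterocyte markers, 4 rose and 3 fell in each sex, or 44.4% and 33.3%. mex1, Ssk, mesh and Tsp2A rose, while the trypsin genes alphaTry, betaTry and epsilonTry fell by 1.88 to 2.99. The summed enterocyte list ran from 14804 to 17862 CPM in females labelled Myc RNAi and from 30342 to 80179 CPM in female controls, and from 16873 to 19534 CPM in males labelled Myc RNAi and from 31916 to 66073 CPM in male controls. Of 10 stem cell and enteroblast markers 10 rose in females and 6 in males, with sums of 201 to 270 CPM in females labelled Myc RNAi and 75.5 to 164 CPM in female controls, and of 199 to 328 CPM in males labelled Myc RNAi and 106 to 157 CPM in male controls. Of 5 copper cell markers 1 fell in females and 3 in males, with sums of 521 to 616 CPM in females labelled Myc RNAi and 741 to 941 CPM in female controls, and of at most 512 CPM in males labelled Myc RNAi and 1283 to 1605 CPM in male controls. The copper cell marker CAH2 fell by 1.42 in females and 2.70 in males, and the difference between these effects passed, at 1.27 (edgeR adjusted p = 0.0192). Of 10 enteroendocrine markers 0 rose and 1 fell in females and 1 rose and 1 fell in males. None of the 8 visceral muscle markers passed in either sex.

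Of 8 Malpighian tubule markers 2 fell in females and 1 in males, or 25% and 12.5%, against 17.6% and 17.7% of all tested genes. Their sum ran from 79.1 to 121 CPM in females labelled Myc RNAi and from 113 to 186 CPM in female controls. In males it ran from 59.6 to 88.8 CPM with Myc RNAi and from 132 to 158 CPM in controls. The list's median log2 fold change was 0.49 in females, while the mean of its sum was lower, and -0.52 in males. ClC-a, one of the list's more abundant genes, fell by 1.67 in females and 1.39 in males, whereas the defining markers CapaR and Lkr averaged below 0.5 CPM in each group and Uro at most 3.12 CPM. Of 7 tested fat body markers 1 fell in each sex, or 14.3%, near the share of all tested genes. Between the sexes, 3 fat body markers were higher in females with Myc RNAi and 4 in controls, in a list that includes the female-specific Yp1, Yp2 and Yp3. In each genotype 3 enteroendocrine markers were lower in females. With Myc RNAi 2 copper cell markers were higher in females, while in controls 1 was higher and 1 lower. Of all tested genes 2.85% were higher and 2.72% lower in females with Myc RNAi, and 5.02% and 5.27% in controls. The part of these cell types in the P450 results was not tested.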

How the data were processed

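RNA from 30 pooled midguts per library was purified with RNeasy, poly(A)-selected and prepared with the NEBNext Ultra II Directional kit, per the labels' protocols. TopHat2 2.0.11, featureCounts and the build dm6 are named in the submitters' processing notes; the annotation, the strand setting and the treatment of multiply mapped reads were not given in the sources used here. The values deposited by the authors are raw counts per gene for the 16 libraries, between 16630050 and 53586401 per library, which limits genes of few reads most. Intervals are not given, and p-values cover the spread between pools.

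From these counts, edgeR 4.0.16 in R 4.3.3 (limma 3.58.1) fitted 1 mean per group over all 16 libraries with TMM factors, and its quasi-likelihood test gave Benjamini-Hochberg adjusted p-values over the 9314 of 16680 genes that passed filterByExpr; below 0.05 a gene is said to have risen, fallen or passed. The fit was also run on simulated counts in which few genes changed, with equal numbers up and down. Many more genes passed in the data, so that run does not test the choice of scaling. TMM factors lay between 1.12 and 1.23 in libraries labelled Myc RNAi and between 0.691 and 1.01 in controls. Every member was matched by its current symbol to the Ensembl annotation of the same build, which gave coordinates, exon lengths for RPKM and overlaps. Replicates of a group differed by more than sampling noise in every pair, with a chi-square per degree of freedom of 24.2 to 306.

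The members and the gene lists were chosen with earlier results of these data known. Members were named by a rule: per pairwise comparison up to 8 in each direction with the lowest p and at least 1 CPM in the higher group, up to 5 for the difference between the sexes' effects, the 10 highest by RPKM in controls, all measured Cyp12, Cyp28 and Cyp309 genes, the extreme fold changes of each clan, and chromosomal neighbours of these. From each list up to 4 genes per comparison were named. Cyp4aa1, Cyp4s3, Cyp6v1, Cyp9h1, Cyp313a4 and the members that were not tested were named after their values had been seen. Alternatives were RLE size factors, total counts alone, other filters on low counts, DESeq2 1.42.0, limma voom, fits to the 8 libraries compared, and leaving out each library in turn.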

Additional observations from a re-analysis of the deposited data

Results flagged for a closer look

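Within a group of 4 libraries, 1 library stood apart from the other 3 for 13 of 232 combinations of named gene and group. Chance gives such a gap in about 1 of 20, or 11.6 of 232, so their number is near what chance gives and the values are listed only as a record. In males labelled Myc RNAi, library 16 stood apart for Cyp312a1 at 13.9 CPM and Cyp309a2 at 2.07 CPM, and library 14 for Cyp6a8 at 9.78 CPM. In females labelled Myc RNAi, library 9 stood apart for Cyp309a1 at 186 CPM and library 11 for Cyp4ac1 at 37.99 CPM. In female controls, library 3 was low for Cyp4e1 at 0.623 CPM and library 4 was high for Cyp305a1 at 7.70 CPM. In male controls, library 5 was high for Cyp12b2 at 33.0 CPM, Cyp9b1 at 49.3 CPM and Cyp9f2 at 1209 CPM, library 7 for Cyp4p3 at 0.935 CPM and Cyp6a8 at 4.44 CPM, and library 8 was low for Cyp309a1 at 772 CPM.

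The log2 effect in females minus that in males passed the edgeR test for Cyp6g1 at 1.22, Cyp309a1 at 1.21 and Cyp4ac1 at 0.98.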

How the results depend on the processing

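Of 106 results called in the comparisons for the genes named by the rule together with dm and mex1, 77 were called under every alternative. Of the 106, 19 were lost when at least 1 library was left out, and 2 changed sign. With total counts alone Cyp4p2 was at 0.12 in females and 0.017 in males, and the summed P450 level was 6099.8 CPM in females and 4984 CPM in males labelled Myc RNAi, and 7166 CPM in female and 8213 CPM in male controls. Leaving out 1 library at a time moved Cyp309a2 in males between -1.80 (without library 16) and 0.36, and Cyp6a8 in males between -1.55 (without library 14) and 0.81; neither was called with all libraries.

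P450 genes higher in female than in male controls numbered 3 in the fit to 8 libraries and 3 to 7 with 1 library left out, and those lower numbered 14 with DESeq2. With Myc RNAi those lower numbered 2 with DESeq2 and 1 to 3 with 1 library left out. P450 genes whose female effect minus male effect passed above 0 numbered 0 with total counts alone, 8 with DESeq2 and 0 to 4 with 1 library left out. Over all genes, calls between control sexes numbered 538 in the fit to 8 libraries, against 959, and 574 to 1292 with 1 library left out. Between the sexes with Myc RNAi they numbered 293 with no filter and 793 with DESeq2, against 518, and 247 to 590. For the difference between the sexes' effects they numbered 57 with total counts alone, 59 with no filter and 243 with DESeq2, against 100, and 36 to 131. The cause of these shifts was not tested.

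No paired analysis was possible because the replicate numbers 1 to 16 are not shared between groups. Low counts kept 16 members out of the test, and 3 of the 4 with no counted read share nearly all their exon sequence with genes on the opposite strand.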
